A study of Mus musculus with 8 samples.

Results

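Transcripts of claudins, of other tight junction proteins and of the epithelial polarity complexes were followed in embryonic mouse kidneys, set side by side for p53 null and wild-type embryos. The genes were taken by name: every numbered claudin on the array, the Tjp, Pard3, Pard6, Crb and Marveld families, and Ocln, Cgn, Cgnl1, F11r, Jam2, Jam3, Cdh1, Cdh16, Epcam, Llgl1, Llgl2, Scrib, Prkci, Prkcz, Mpp5 and Patj (the current symbol of Inadl). In all 49 genes had a probe, of 17305 genes that the probes could be named for, and 43 of the 49 were bright enough to be tested. Both genotypes were C57BL/6 at embryonic day 15.5, with no treatment given in the labels, and the tissue was whole embryonic kidney. Each of 8 arrays carried null RNA in one dye and wild-type RNA in the other. Replicate 1 had 4 arrays and replicates 2 and 3 had 2 arrays each, with the dyes swapped within each replicate. The labels call the replicates biological, and do not say which part of the p53 gene was deleted, whether kidneys were pooled or which embryos were littermates. Ratios are log2 of null over wild type, so a negative value is a lower level in null, and means are given ± SD over 3 replicates.

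Tight junctions seal the space between neighbouring epithelial cells. Claudins span the membrane and set which ions and solutes may pass between cells, and each nephron segment carries its own set of them; occludin, the Marveld proteins and the junctional adhesion molecules lie beside them, and the scaffolds of the Tjp and cingulin families tie them to actin. The Crumbs, Par and Scribble complexes mark the apical and basolateral sides of the cell. In the embryonic kidney these genes act in the branching ureteric epithelium and in mesenchyme that turns into nephron epithelium, while a few members, Cldn5 and Jam2 among them, are known from endothelium.

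The replicates did not resemble one another equally. Replicate 1 lay on slide 1 and replicates 2 and 3 on slide 2; over 20865 tested probes, which are not independent, the correlation of ratios was 0.93 between replicates 2 and 3, but 0.06 between 1 and 2 and −0.15 between 1 and 3. Over 10432 bright probes the wild-type levels of replicates 2 and 3 differed with an SD of 0.140 to 0.147, less than the 0.166 to 0.185 between repeat hybridisations of the same replicate 1 wild-type RNA. Their null levels differed with an SD of 0.194 to 0.229, against 0.146 to 0.190 between the repeats of replicate 1 null RNA. Between replicates 1 and 2 the SD was 0.93 to 0.97 in wild-type and 0.86 to 0.92 in null RNA. The labels do not say whether replicates 2 and 3 share wild-type RNA; if so, they are not independent and the p-values are too small. Trp53, the targeted gene, had −1.08, −0.47 and −0.45 on its brighter probe and was lower in null on all 8 arrays (mean −0.67 ± 0.36, limma adjusted p = 0.279); a second probe had 0.16 ± 0.13. Transcripts that hypoxia is known to induce had a median of −0.06 in replicate 1 and of −2.56 and −2.62 in replicates 2 and 3 (13 genes, all 13 lower in the mean). Their summed signal in wild-type RNA was 22220 to 23500 in replicate 1 and 168600 to 193000 on slide 2, against 19460 to 26660 in null RNA over all replicates. Xist, made from the inactive X chromosome of females, stood above background with wild-type RNA on 8 arrays and with null RNA on 2. The kidney markers Six2, Wt1, Nphs1 and Foxd1 were above background on all 8 arrays in both genotypes.

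The members lay about as far from equality as other genes, with a median absolute log2 ratio of 0.155 against 0.149 over all genes. With limma 0 of the 43 passed at an adjusted p under 0.05, as did 0 of 12000 genes (0%), and 6 of the 43 (14%) had an unadjusted p under 0.05 against 18.2% of all genes. The mean ratio was lower in null on 28 members and higher on 15, and the median was −0.10, against 0.0047 over all genes (49.1% lower). With arrays centred on their median in place of loess the split turned to 15 lower and 28 higher; the median over all genes then lay at 0.15 and that of the members 0.06 below it, against 0.11 below it with loess. In each of the 3 replicates 14 members (32.6%) were lower in null, against 19.7% of all genes, and 2 (4.65%) were higher, against 20.4%. The 2 higher ones were Cldn16 and Marveld3. Among the lower ones was Pard6b, which on slide 2 passed the filter only through wild type. Where both dye orientations had to share the sign as well, 13 of the 43 remained, 11 lower and 2 higher. Of all genes 35.6% met that rule in either direction. The sign in replicate 1 was opposite to that on slide 2 for 24 of 43 members, or 55.8%, against 52.8% of all genes.

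**Figure D1:**
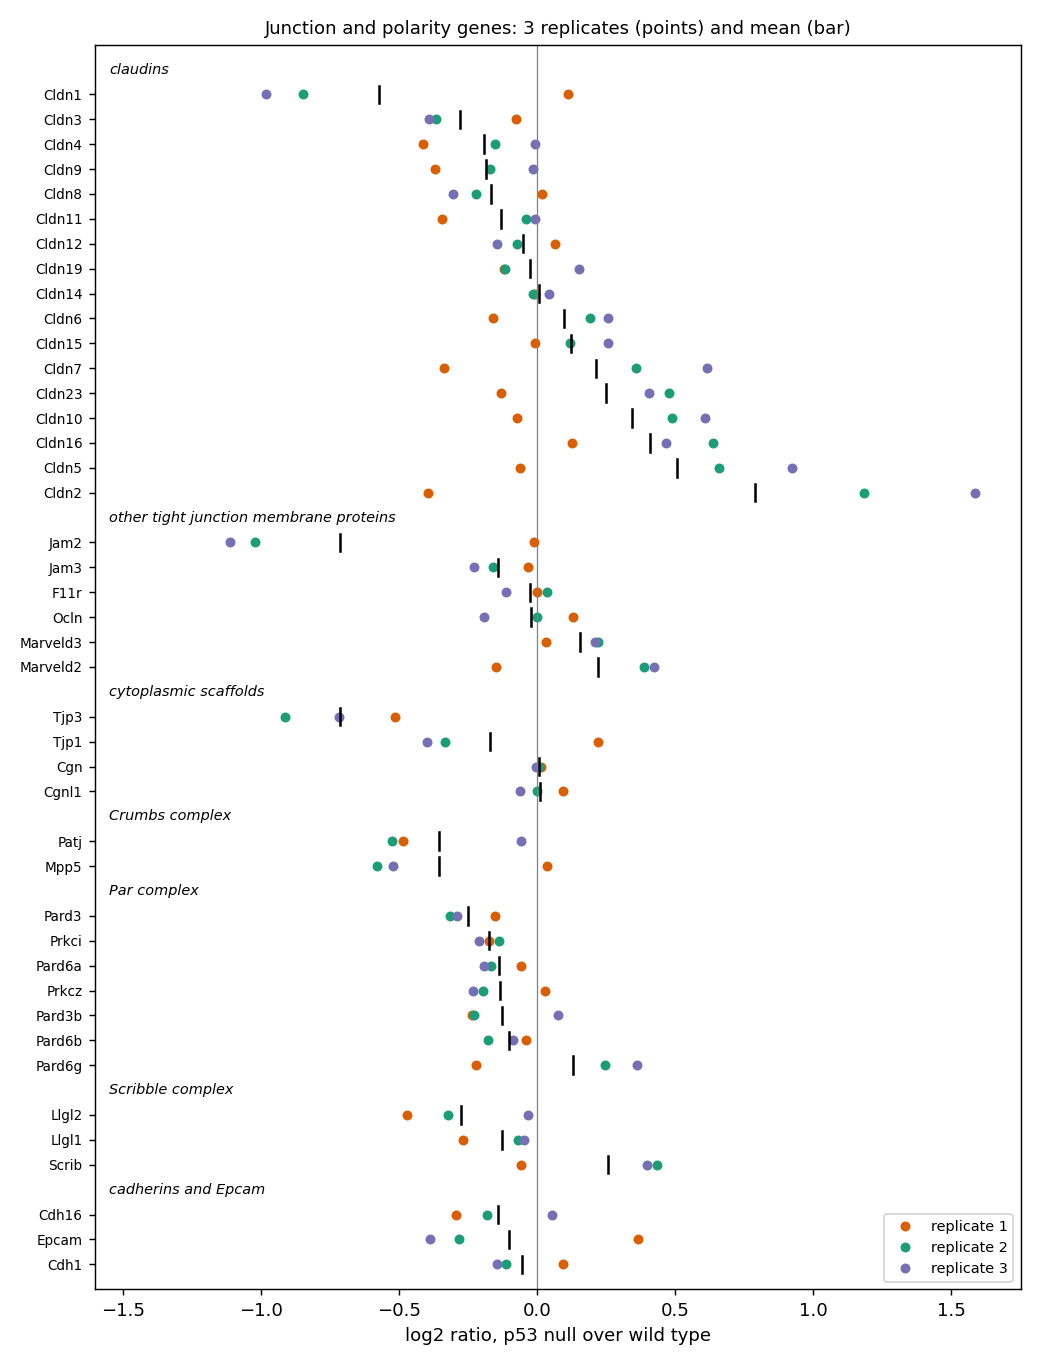
Each measured gene reported here is a line, grouped by role, with its log2 ratio of null over wild type in 3 replicates (points) and the mean (bar). Tjp3 has all 3 points between −0.91 and −0.52, whereas for Cldn2, Cldn1 and Jam2 the point of replicate 1 lies far from the points of replicates 2 and 3.

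Without replicate 1, 27 of the 43 members passed in limma, 12 higher (27.9%, against 32.9% of all genes) and 15 lower (34.9%, against 27.2%). Without replicate 2 or replicate 3 none of the 43 passed, and 0% of all genes did. With all 8 arrays entered and the replicate as a random effect 1 member passed on the lower side (Tjp3, adjusted p = 0.0263), against 2.78% of all genes, and 0 on the higher side, against 2.4%. The calls made without replicate 1 thus describe 2 replicates of 1 slide.

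Tjp3 encodes ZO-3, a scaffold found at epithelial tight junctions, and had the lowest mean of the members. Its ratio on the 4 arrays of replicate 1 was −0.37, −0.45, −0.69 and −0.55, on those of replicate 2 −0.89 and −0.94, and on those of replicate 3 −0.77 and −0.67. All 8 arrays were lower in null, in both dye orientations; the mean of slide 2 lay below that of replicate 1, while single arrays of the 2 slides overlapped. The mean was −0.72 ± 0.20 (0.609 of wild type, 95% interval −0.998 to −0.432, limma adjusted p = 0.279), and it lay between −0.82 and −0.49 under the 17 other ways of processing.

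At the other end stood Cldn2, a claudin of the proximal tubule that forms a pore for sodium and water, with the highest mean and the widest spread. Replicate 1 had −0.15, −0.51, −0.46 and −0.46 on its 4 arrays, while replicate 2 had 1.09 and 1.28 and replicate 3 had 1.51 and 1.66. The slides did not overlap and had opposite signs, so that the mean of 0.79 ± 1.05 describes neither (95% interval −0.36 to 1.94, adjusted p = 0.378). The size also depended on the background correction, with a mean of 1.29 at a normexp offset of 10 and of 2.03 in the deposited log ratios. With wild-type RNA the probe cleared the background on all 4 arrays of replicate 1, but on only 1 of 2 arrays in each of the other replicates.

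Cldn5, the main claudin of endothelium, had −0.17, 0.02, −0.25 and 0.16 in replicate 1, 0.54 and 0.78 in replicate 2 and 0.78 and 1.06 in replicate 3 (mean 0.51 ± 0.51, adjusted p = 0.314). All 4 arrays of slide 2 were higher in null, and those of replicate 1 lay on both sides of 0. Jam2, an adhesion molecule of endothelial junctions, went the other way: 0.00, −0.10, 0.13 and −0.07 in replicate 1, then −0.86 and −1.18 in replicate 2 and −0.97 and −1.25 in replicate 3. On slide 2 Jam2 stood at 0.478 of wild type, yet in replicate 1 at −0.01 (mean −0.71 ± 0.61, adjusted p = 0.288). Cldn1, a sealing claudin that in the kidney is known from the parietal cells of Bowman's capsule, had 0.04, −0.06, 0.26 and 0.21 in replicate 1, −0.69 and −1.01 in replicate 2 and −0.91 and −1.06 in replicate 3. Its slides did not overlap either (mean −0.57 ± 0.60, adjusted p = 0.321; −0.98 in the deposited log ratios).

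**Figure D2:**
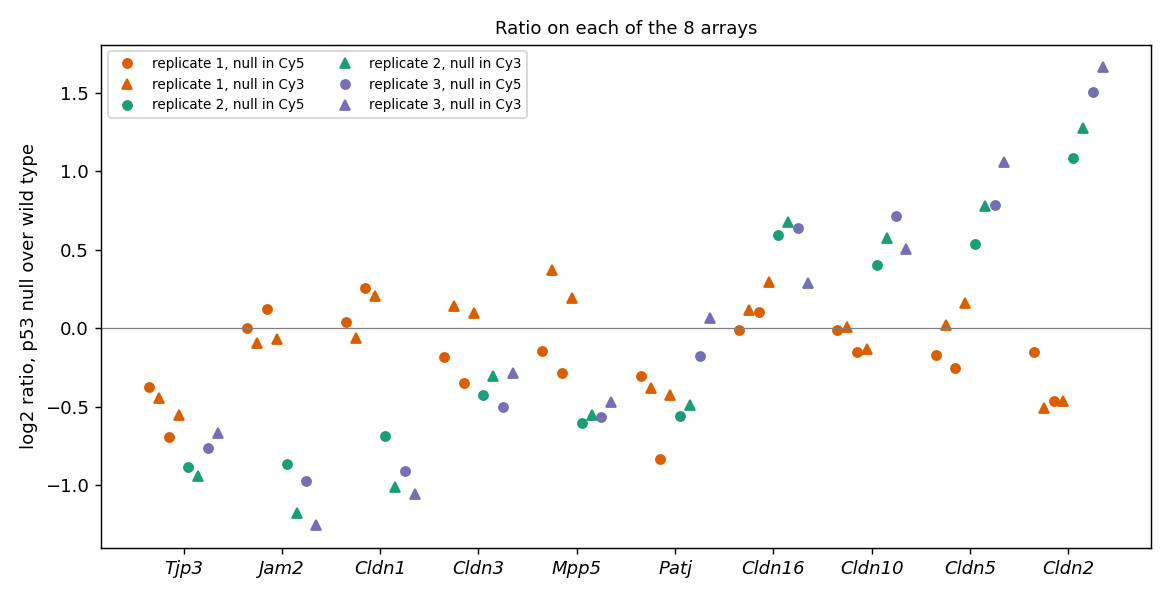
The log2 ratio of null over wild type is plotted for each of the 8 arrays and 10 genes, with colour for the replicate and shape for the dye of the null RNA. All 8 points of Tjp3 lie below 0, while for Cldn2 the 4 points of replicate 1 lie between −0.51 and −0.15 and the other 4 between 1.09 and 1.66.

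Promoter windows are shown for 3 of the 6 genes with the lowest or highest means, those whose window holds one of the motifs searched, since these genes differ most in the comparison. The windows are those of RefSeq on GRCm38.p6, from 250 bases before to 50 bases after the start of transcription, 5′ to 3′ on the strand of the gene, with the matched letters in capitals. For Tjp3 (chr10:81291218-81291517, minus strand) the capitals mark CACGTG, which holds ACGTG on both strands, and CACCTG; for Cldn5 (chr16:18776597-18776896, plus strand) they mark AACCNGTT read on the other strand; for Cldn2 (chrX:139800558-139800857, plus strand) they mark TATAAA.
Tjp3: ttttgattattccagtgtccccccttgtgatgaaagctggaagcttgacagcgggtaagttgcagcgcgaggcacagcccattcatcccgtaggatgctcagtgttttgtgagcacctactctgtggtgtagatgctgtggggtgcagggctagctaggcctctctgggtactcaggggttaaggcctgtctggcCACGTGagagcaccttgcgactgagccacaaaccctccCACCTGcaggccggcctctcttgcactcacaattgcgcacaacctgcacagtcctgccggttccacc
Cldn5: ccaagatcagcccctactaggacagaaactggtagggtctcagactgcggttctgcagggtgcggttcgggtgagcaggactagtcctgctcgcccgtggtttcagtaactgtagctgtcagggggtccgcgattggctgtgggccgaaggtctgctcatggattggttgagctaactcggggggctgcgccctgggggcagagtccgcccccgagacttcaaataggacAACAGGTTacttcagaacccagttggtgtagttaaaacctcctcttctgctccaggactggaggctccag
Cldn2: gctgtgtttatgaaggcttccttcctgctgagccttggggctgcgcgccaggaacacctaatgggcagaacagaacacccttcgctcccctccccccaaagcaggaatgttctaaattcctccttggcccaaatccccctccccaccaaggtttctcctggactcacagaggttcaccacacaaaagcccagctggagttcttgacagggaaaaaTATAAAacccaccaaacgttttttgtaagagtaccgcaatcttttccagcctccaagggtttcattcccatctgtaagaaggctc
CACCTG is the E-box that Snail and Zeb repressors are known to bind, AACCNGTT a Grainyhead-like motif, ACGTG the core of HIF sites and TATAAA the TATA box. The first 3 were searched on both strands and TATAAA on the gene's strand alone. Of the 49 genes 35 had a window, 53 windows in all, and several genes had more than 1. CACCTG was in 39.6% of the members' windows and in 20.2% of all 32851, ACGTG in 35.8% and 19.6%, AACCNGTT in 3.77% and 2.09%, and TATAAA in 3.77% and 8.32%. The members with AACCNGTT were Cgn and Cldn5, and those with TATAAA were Cldn2 and Pard3. The windows of Cldn1 and Cldn16 held none of these letters, and Jam2 was not matched to a window. A second window of Tjp3, from another start, held CACCTG once. A match describes the letters and was not tested as a site.

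Of the 21 claudins on the array 17 were measured, 8 lower and 9 higher in null in the mean, and with centring on the median 5 lower and 12 higher. The claudin median was 0.01, with −0.08, −0.02 and 0.15 in replicates 1, 2 and 3, and 0 of the 17 passed. The sign was opposite between the slides for 12 of them (70.6%, against 52.8% of all genes). Besides Cldn2 and Cldn5 the highest means were those of Cldn16 and Cldn10, both claudins of the thick ascending limb, where Cldn16 forms the path for magnesium and calcium and a form of Cldn10 that for sodium. Cldn16 had 0.13, 0.64 and 0.47 in replicates 1, 2 and 3 (mean 0.41 ± 0.26, adjusted p = 0.279), the one claudin higher in each replicate, and its wild-type signal cleared the background on 6 of 8 arrays. Its mean was 0.79 at a normexp offset of 10 and 1.31 in the deposited log ratios, where it stood above that of Cldn5 (0.49). Cldn10 had −0.07, 0.49 and 0.61 (0.34 ± 0.36, adjusted p = 0.341; 0.51 in the deposited log ratios), just below 0 in replicate 1 and above it on slide 2.

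Cldn7, a claudin of the distal nephron and collecting duct, had −0.34, 0.36 and 0.61 (0.21 ± 0.49). Its mean also depended on the dye, with 0.00 where the null RNA was in Cy5 and 0.42 where it was in Cy3. Cldn3, another claudin of the collecting duct, was lower in each replicate at −0.08, −0.36 and −0.39 (−0.28 ± 0.18, adjusted p = 0.287), 0.825 of wild type in the mean, but its mean was −0.017 with centring on the median. The Cldn3 mean was −0.40 with the null RNA in Cy5 and −0.16 in Cy3. Its 4 arrays of replicate 1 had −0.18, 0.14, −0.35 and 0.09, with the sign changing with the dye. Cldn4 and Cldn8, which act together as a chloride path in the collecting duct, had −0.19 and −0.17. The Cldn4 value was −0.54 with the null RNA in Cy5 and 0.16 in Cy3, so its direction was not stable to the dye. The remaining measured claudins, Cldn6, Cldn9, Cldn11, Cldn12, Cldn14, Cldn15, Cldn19 and Cldn23, had means between −0.19 and 0.25, with adjusted p from 0.375 to 0.965. Cldn13, Cldn17, Cldn18 and Cldn22 were not tested: none was well above background on more than 2 arrays in either genotype.

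Among the other membrane proteins of the junction, Ocln (occludin) and F11r, which encodes JAM-A, had −0.02 ± 0.16 and −0.03 ± 0.08, with 95% intervals of −0.28 to 0.23 and −0.23 to 0.18. Jam3, a partner of Jam2, had −0.03, −0.16 and −0.23 (−0.14 ± 0.10), lower in each replicate with loess and of the other sign with centring on the median. Marveld2, which encodes tricellulin at corners where 3 cells meet, had 0.22 ± 0.32 on its brighter probe and 0.006 on another. The brighter probe had 0.44 with the null RNA in Cy5 and 0.003 in Cy3. Marveld3 had 0.03, 0.22 and 0.21 on its brighter probe (0.15 ± 0.11, adjusted p = 0.368) and −0.08 ± 0.06 on another, so its probes differed in direction.

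Of the scaffolds, Tjp1, which encodes ZO-1, had 0.22, −0.33 and −0.40 (−0.17 ± 0.34) on its brighter probe, again with the slides on opposite sides. Its other probe had −0.003, −0.017 and −0.092 (−0.04 ± 0.05), below 0 in each replicate. Cgn and Cgnl1, for cingulin and its relative paracingulin, both had means of 0.01, and the Cgn probe was above background in null RNA on 5 arrays. The other tested Cgnl1 probes had 0.02 and −0.07, so its probes differed in sign. By the brightest probe Tjp3 had a single sign in all replicates and Tjp1 did not; whether their ratios differ was not tested.

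The 2 measured genes of the Crumbs complex, both for adaptors that bind Crumbs at the apical side, had lower means. Mpp5, which encodes Pals1, had 0.03, −0.58 and −0.52 (−0.35 ± 0.34, adjusted p = 0.318), near equality in replicate 1 and at 0.683 of wild type on slide 2, with a mean of −0.19 under centring on the median. Patj had −0.49, −0.52 and −0.06 (−0.36 ± 0.26, adjusted p = 0.286) on its brightest probe, so that here replicate 3 stood apart; its other probes had −0.04 and −0.08, and its mean was also −0.19 under centring on the median. Of Crumbs itself, Crb1 was above background on 0 arrays and Crb3 on the 4 arrays of replicate 1 alone, in both genotypes, and neither was tested.

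The Par complex couples the scaffolds Par3 and Par6 to an atypical protein kinase C. The mean was lower on 6 of its 7 genes with loess, on 3 with centring on the median and on 5 of 6 under the strict filter, which drops Pard6b, and the median was −0.15, −0.18 and −0.19 in replicates 1, 2 and 3. Pard3 had −0.15, −0.32 and −0.29 and was lower on all 8 arrays, between −0.38 and −0.13 (mean −0.25 ± 0.09, adjusted p = 0.279). Its 3 other probes had −0.09, 0.05 and −0.18, so its 4 probes ran from −0.25 to 0.05 and differed in sign; with centring on the median the brightest had −0.085. Pard6a was also lower on all 8 arrays, at −0.06, −0.17 and −0.19 (−0.14 ± 0.07, adjusted p = 0.376), and Prkci, the kinase gene, had −0.18, −0.14 and −0.21 (−0.17 ± 0.04, adjusted p = 0.304). Pard6a and Prkci both had the other sign with centring on the median. Prkci also depended on the dye, with −0.05 where the null RNA was in Cy5 and −0.30 in Cy3. On the 4 arrays of replicate 1 Prkci had 0.08, −0.43, 0.05 and −0.40. Pard6b had −0.04, −0.18 and −0.09, with null RNA above background on the 4 arrays of replicate 1 alone; on slide 2 it passed the filter only through wild type, where it was the higher, so its place among the lower genes carries no weight. Prkcz had −0.13 on its brightest probe and 0.11 and 0.07 on the others; Pard3b and Pard6g had −0.13 and 0.13.

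In the Scribble complex, which defines the basolateral side, Scrib had −0.06, 0.43 and 0.40 (0.26 ± 0.27, adjusted p = 0.358), while Llgl2 had −0.47, −0.32 and −0.03 (−0.28 ± 0.22, adjusted p = 0.307) and Llgl1 −0.27, −0.07 and −0.05. Both Llgl genes were lower in each replicate with loess, but with centring on the median Llgl1 had 0.14 and Llgl2 −0.048. Both also depended on the dye. Llgl1 had −0.013 with the null RNA in Cy5 and −0.245 in Cy3, and Llgl2 had −0.445 and −0.105. All 3 genes had their lowest value in replicate 1. Epcam, an adhesion molecule of the ureteric epithelium and collecting duct, had 0.37, −0.28 and −0.39 (−0.10 ± 0.41), higher in replicate 1 and lower on slide 2. Cdh1 and Cdh16, for E-cadherin and the kidney-specific cadherin, had −0.06 ± 0.13 and −0.14 ± 0.18, adjusted p = 0.742 and 0.468.

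**Figure D3:**
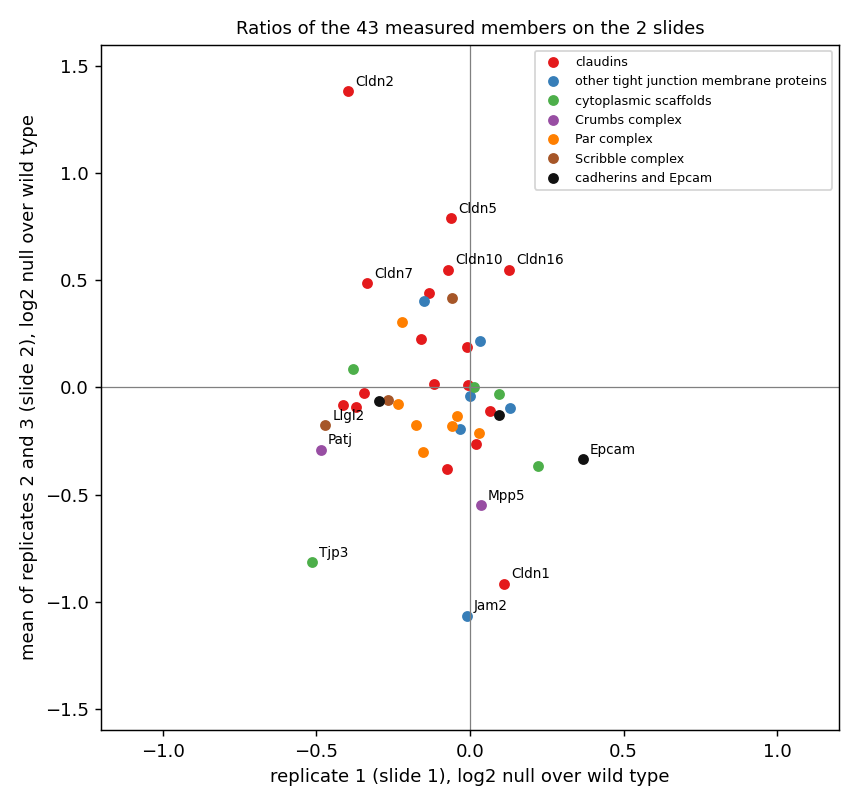
Each point is one of the 43 measured genes, with its ratio in replicate 1 on the x axis and the mean of replicates 2 and 3 on the y axis, both as log2 null over wild type and coloured by role. Tjp3 lies at −0.52 and −0.82, low on both axes, and Cldn2 at −0.40 and 1.38, in a quadrant of opposite signs; 24 genes in all lie in such quadrants.

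Other genes of junctions and polarity followed a like split, 37 of 50 measured genes lower and 13 higher with loess and 18 lower and 32 higher with centring on the median, with a median of −0.07. None passed in limma, and 10 (20%, all lower) had an unadjusted p under 0.05. Of all 12000 genes 18.2% did in either direction, 1071 lower and 1108 higher. The smallest p-values were those of Cdh6, a cadherin of early nephrons (−0.60 ± 0.16), Cxadr, a tight junction receptor of the JAM type (−0.33 ± 0.09), Mpdz, a scaffold related to Patj (−0.41 ± 0.17), and Cdh3, for P-cadherin (−0.28 ± 0.03), each with an adjusted p of 0.279. The Cxadr value was −0.11 as the mean of its kept probes, and −0.11 with null in Cy5 against −0.55 in Cy3; Cdh6 had −1.16 in the deposited log ratios, and Cxadr, Mpdz and Cdh3 had −0.13, −0.21 and −0.080 with centring on the median. Of 17 measured regulators listed as inducers of epithelial junction genes 10 were lower and 7 higher, and 0 passed. With centring on the median 8 were lower and 9 higher. They are transcription factors save for Esrp2, which regulates splicing. Esrp2, Elf3 and Klf5 had −0.28, −0.51 and −0.30. Elf3 had −1.42 in the deposited log ratios, and with centring on the median Esrp2 had −0.13 and Klf5 −0.14. All 6 measured repressors of epithelial junction genes had lower means (3 of 6 with centring on the median), and 0 passed. Their median was 0.00, −0.34 and −0.40 in replicates 1, 2 and 3, with opposite signs between the slides for 4 of the 6. Tcf4 and Twist2 had −0.28 ± 0.08 and −0.16 ± 0.09. Under the 17 other ways of processing Tcf4 ran from −0.37 to −0.037, and Twist2 from −0.33 to 0.029 with 2 changes of sign. Twist2 had 0.008 with null in Cy5 and −0.33 in Cy3. Zeb1 had 0.09, −0.46 and −0.55 (−0.31 ± 0.35) and Zeb2 0.22, −0.35 and −0.54 (−0.23 ± 0.39). The Grainyhead-like gene Grhl2 had 0.02.

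Cell type markers moved beside several of these values, and their part in them was not tested; in whole kidneys fewer cells of a type and less RNA per cell cannot be told apart. Beside Cldn5, 8 of 10 endothelial markers had higher means, with medians of −0.01, 0.39 and 0.56 in replicates 1, 2 and 3. Their summed signal on slide 2 was 27110 to 28270 in null and 18000 to 19510 in wild-type RNA, and in replicate 1 22450 to 23730 and 22580 to 24100; Jam2 did not share this direction. Beside Cldn2, 5 of 7 proximal tubule markers were higher, with medians of −0.08, 0.47 and 0.69 and sums on slide 2 of 2501 to 3409 in null and 1948 to 2093 in wild type; in replicate 1 the order was the other, 2373 to 2767 against 2937 to 3414. Beside Cldn16 and Cldn10, all 5 measured markers of the loop of Henle and distal tubule were higher (−0.07, 0.69 and 0.79; sums of 1786 to 2125 in null and 893 to 918 in wild type on slide 2, against 1395 to 1605 and 1756 to 1914 in replicate 1), while Slc12a3 was above background on 0 arrays. Beside Cldn3, Cldn4, Cldn8 and Epcam, 9 of 12 ureteric and collecting duct markers were lower (−0.19, −0.24 and −0.22; 4 of 12 with centring on the median), and Ret, a marker of ureteric tips, was above background on 0 null and 1 wild-type arrays. Cldn7 did not share this direction on slide 2 (0.49), nor did Epcam in replicate 1 (0.37). Stromal markers were lower on 8 of 8 (7 with centring on the median), and all 4 measured liver markers were higher (−0.03, 0.97 and 0.59). Macrophage markers were higher on 5 of 5, with medians of 0.24, 0.64 and 0.58, and 4 of the 5 in each replicate. Early nephron markers were lower on 6 of 6 (5 with centring on the median; medians of −0.34, −0.37 and −0.31), and the 3 measured adrenal markers were higher (0.07, 0.57 and 0.60).

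**Figure D4:**
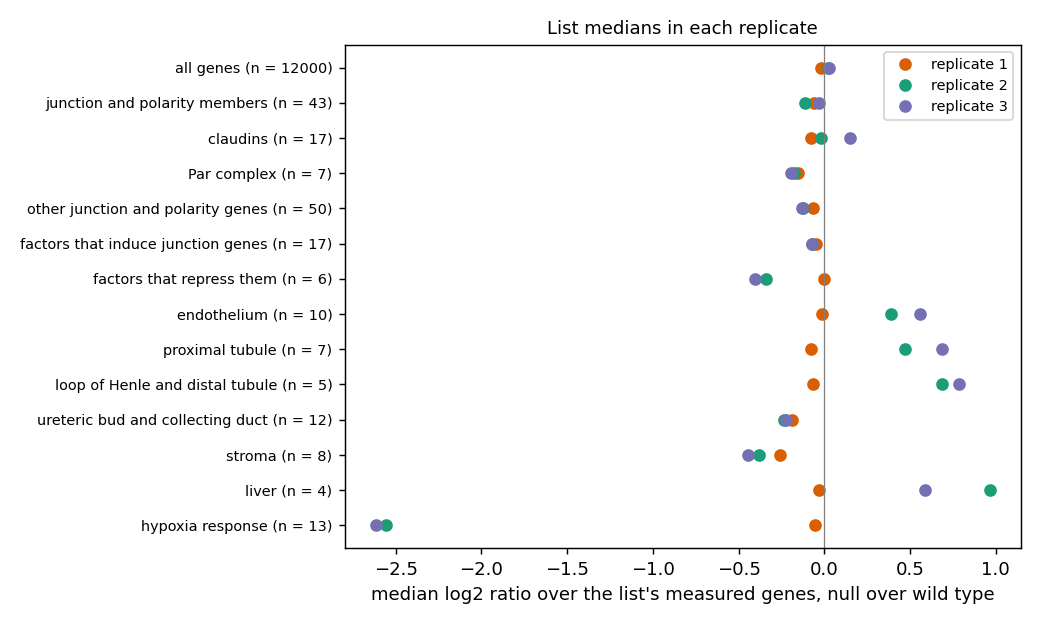
The median log2 ratio of null over wild type is plotted for each gene list in each replicate, with the number of measured genes beside its name. The junction and polarity members stay between −0.11 and −0.03, whereas the endothelial, proximal tubule, loop, liver and hypoxia medians lie near 0 in replicate 1 and apart from it in replicates 2 and 3.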

How the data were processed

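The labels' protocols describe column-purified total RNA that was copied into dye-carrying cDNA. What the authors deposited are scanner files with the intensity of each spot and its background, from Agilent Feature Extraction (10.5.1.1 in the headers, 6.1 in the submitters' processing notes). The deposited value table and the log ratio in the scanner files, used as alternatives, are in log10, per the file headers for the latter.

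Median signals were background-corrected with normexp (offset 50) and normalized by loess within arrays in limma 3.58.1 under R 4.3.3, with the 1639 control spots at weight 0. Spots flagged as outliers were set missing and spots of a probe averaged. This offset draws the ratios of dim probes towards 0. Ratios were turned to null over wild type, and the 2 dye orientations averaged within a replicate. To be kept, a probe had to exceed background clearly in one genotype on 50% or more of each replicate's arrays, which left 20880 of 41174, of which 20865 had 3 values. Probes were named through RefSeq accessions in the GRCm38.p6 annotation (25097 named), and a gene is given by its brightest kept probe. No probe was named Crb2 or Marveld1. Summed signals of marker lists come from channel levels made comparable between arrays by quantile normalization of the mean log2 intensity. The 3 replicate values were tested against 0 with limma, two-sided, with Benjamini-Hochberg adjustment over 20865 probes and a 0.05 threshold. Permuting the signs of 3 values gives no p below 0.25, and the number of arrays limits the precision. The fit was tested on simulated data.

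The members, lists and alternatives were chosen with earlier results of these data known, and the hypoxia genes and Xist were added last. Values per replicate are given for members of 1 sign over all replicates and both dyes, the 12 with the largest mean and the 8 with the largest difference between slides (22 in all); of other lists the 4 genes with the smallest p are named, and other names, such as Grhl2, were chosen after their values were seen. Some genes picked by name or by this rule are not reported here, were not replaced and stayed in all counts, medians and tests.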

Additional observations from a re-analysis of the deposited data

How the results depend on the processing

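Counts and medians were recomputed under 17 alternatives. The number of members past the threshold was 0 in the reported fit. It was 0 to 27 when 1 replicate was left out, the 27 without replicate 1. Those were 27.9% of the members higher and 34.9% lower, against 32.9% and 27.2% of all genes. Over all probes the number was 0 and 0 to 11699. Slide as a fixed block gave 20 members and 8521 probes, with a spread from replicates 2 and 3 alone. By gene that was 14% of the members higher and 32.6% lower, against 20.4% and 22.7% of all genes. A fit of the 8 single arrays, replicate being the random effect, gave 1 member and 965 probes. The 1 member was 2.33% on the lower side, against 2.78% of all genes. The fit on 1 value per slide and all other alternatives gave 0. The median of the members, −0.10, was 0.092 with centring on the median, −0.051 with no filter on dim probes and −0.035 with null in Cy5 only, and moved by less than the SD of the replicate medians, 0.041, under the rest. Of 729 single values 43 had another sign than the reported one, 13 of them with centring on the median, and 24 of the 43 members kept their sign throughout. Without the 5 genes whose probes differed in sign, an alternative chosen after seeing the data, the median was −0.10. Pairing is built into each ratio, since each array compares both genotypes. There is 1 group of ratios, and no further pairing was applied. Slide and replicate cannot be told apart for replicate 1, and dim probes such as Pard6b, Cgn and Cldn2 in wild type are limited by signal over background.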
